A study of Drosophila melanogaster x Drosophila simulans and Drosophila melanogaster and Drosophila simulans with 186 samples.

Results

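The genes described here are those of the fourth chromosome, the smallest autosome of Drosophila, in sliced embryos of Drosophila melanogaster, Drosophila simulans and their hybrids. A gene was taken where its locus in the FPKM files lies on chromosome 4 (release 5 of the D. melanogaster genome) and where it has a row in the table of allele-specific expression. Of the 78 chromosome 4 genes in the FPKM files, 65 met both conditions, and they made up 1.06% of the autosomal genes in the allele table. The other 13 were barely detected, with a median of 0.0978 FPKM and none above 0.913 FPKM as a mean over the 7 embryos.

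The series holds 186 RNA-seq libraries, each from 1 cryosection of a single embryo at blastoderm cycle 14C, the middle of stage 5, when the syncytial nuclei are being enclosed by membranes. Hybrids had either a D. simulans mother and a D. melanogaster father (simXmel, 2 embryos) or a D. melanogaster mother and a D. simulans father (melXsim, 3 embryos). There was 1 embryo of pure D. simulans (simXsim) and 1 of pure D. melanogaster (melXmel). All D. melanogaster parents came from the inbred line DGRP-340 and all D. simulans parents from w501, so each species is represented by a single strain. The embryo is the replicate throughout, and the parental species have 1 embryo each and no replicate error of their own. Slices were numbered along the anterior-posterior axis, and the pole cell transcript pgc, a marker of the posterior pole, averaged 1.97 to 13.8 FPKM in the anterior part of the 7 embryos, against 37.4 to 193.3 FPKM in the posterior part. The anterior marker bcd was low, and it was higher in the anterior part in 6 of 7 embryos, the exception being melXsim replicate 2 with 0.643 FPKM in the anterior and 2.22 FPKM in the posterior part. The 10 blastoderm markers, among them eve, ftz and Kr, summed to between 927 and 1216 FPKM in every embryo, germ plasm markers summed to between 60.7 and 119.5 FPKM, and 7 markers of later neurons, glia and muscle summed to at most 2.56 FPKM and 6 of ovarian follicle cells to at most 1.77 FPKM.

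The fourth chromosome is largely packaged as heterochromatin, yet most of its genes are active. In Drosophila its genes are bound by the chromosome-specific protein Pof together with the heterochromatin protein HP1a, and it undergoes almost no meiotic crossing over. Its genes include ci, the transcription factor of the Hedgehog pathway, pan, the nuclear effector of Wnt signalling, and the Pax6 genes ey and toy. An embryo of this stage contains both messenger RNA laid down by the mother during oogenesis and RNA transcribed from the zygotic genome. In a hybrid, RNA of the mother's allele can come from either source, whereas RNA of the father's allele is transcribed in the embryo. Pof itself, which lies on another chromosome, was present at 15.1 to 30.8 FPKM in the 7 embryos.

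The chromosome 4 genes ranged from barely detected to among the abundant transcripts of the embryo. FPKM, a fragment count scaled to transcript length and library size, was averaged over the slices of an embryo. Of the 65 genes, 49 averaged at least 1 FPKM over the 7 embryos, 35 at least 10 FPKM and 7 at least 100 FPKM. The median gene lay between 9.05 and 15.5 FPKM in the 7 embryos, against 14.4 to 18.1 FPKM for other autosomal genes of the allele table, and was the lower of the pair in every embryo but melXsim replicate 1. In melXsim replicate 2 the chromosome 4 genes had the smallest part of all autosomal FPKM, at 0.498%. The next was melXsim replicate 3 with 0.624%, and the remaining embryos had 0.751% to 0.818%. Replicate 2 of melXsim also had the highest sums of later neuron, glia and muscle markers (2.56 FPKM, against at most 1.21 FPKM in the others) and of follicle cell markers (1.77 FPKM, against at most 0.83 FPKM). The part of these markers in the values of that embryo was not tested. Leaving it out gave 42 maternal calls in place of 41 and 14 calls between cross directions in either case.

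The most abundant member was ATPsyn-beta, the beta subunit of mitochondrial ATP synthase (release 5, chromosome 4, 1052109 to 1055543). It had 538 and 936 FPKM in the simXmel embryos, 890, 534 and 458 FPKM in the melXsim embryos, 923 FPKM in simXsim and 915 FPKM in melXmel. Its embryos thus differed as much within a cross as between crosses. Next came Rad23, a ubiquitin receptor also active in nucleotide excision repair, with 428 and 420 FPKM in simXmel, 340, 203 and 383 FPKM in melXsim, 285 FPKM in simXsim and 346 FPKM in melXmel. CG11077, the third, averaged 308 FPKM over the 7 embryos, gw (gawky), which acts in microRNA silencing, averaged 178 FPKM, and Arf102F, a small GTPase of membrane traffic, averaged 154 FPKM. The 16 members below 1 FPKM included genes that act later in development: the Pax6 gene ey had at most 0.54 FPKM in any embryo, onecut at most 0.56 FPKM and the titin-like muscle gene bt at most 0.09 FPKM. The second Pax6 gene, toy, was just above that level with a mean of 1.14 FPKM.

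Neighbouring loci overlap in places, and no source used here states that reads were assigned by strand. The loci of CG11076 and ATPsyn-beta share 275 bases, those of Zyx and Rfabg 4034 bases, those of CG32850 and PMCA 3196 bases and those of zfh2 and Thd1 2002 bases, so reads in these stretches may be shared between the genes. In all, 12 of the 65 members lie in such a pair.

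Most chromosome 4 transcripts came from the mother's allele. The allele-specific expression (ASE) score of a gene in a slice is the difference between D. simulans and D. melanogaster reads divided by their sum, and the maternal share given here is the percentage of the mother's allele that corresponds to the mean score of an embryo. In the pure species embryos, where only 1 species' alleles exist, the scores followed the labels: all 41 chromosome 4 genes with a value in simXsim were at 0.901 or higher and all 34 in melXmel were at -0.916 or lower. Many of these values rest on few slices. zfh2 had a score in 1 slice of simXsim and none of melXmel, and unc-13 in none of simXsim and 1 of melXmel. fd102C had no score in either, so this check hardly covers these genes. Of the 65 members, 48 had a score in at least 3 slices of each hybrid embryo and were tested, and 17 were not. The highest of the 17 by mean level was fuss at 6.25 FPKM, which had scores in 14, 12 and 17 slices of the melXsim embryos but in only 0 and 1 slices of the simXmel embryos. Among the 48, 41 were biased to the maternal allele in both directions of the cross (limma, Benjamini-Hochberg adjusted p under 0.05 in each direction), which is 85.4%, against 59.8% of the 4610 autosomal genes tested. No gene on any autosome was called paternal in both directions by limma (0%), and 0 members were paternal in both at an unadjusted p under 0.05. Of the 7 tested members not called maternal, Slip1, which averaged 70.2%, and Rfabg, which averaged 76.5%, passed in melXsim but missed the threshold in simXmel (adjusted p = 0.0742 and 0.0643). CG11360 had a lower average, 63.1%, but was called maternal.

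The distribution was shifted toward the maternal end relative to the larger autosomes. The median maternal share, averaged over both directions, was 90.2% for the fourth chromosome, against 75.2% for 2L, 76.3% for 2R, 76.2% for 3L and 78.5% for 3R. The same order held within each hybrid embryo: the fourth chromosome median was 93.0% and 90.7% in simXmel and 92.7%, 88.6% and 94.2% in melXsim, where other autosomal genes had 76.1% and 75.6% in simXmel and 82.1%, 77.1% and 87.2% in melXsim. The median SD over the 5 hybrids was 3.12 percentage points for chromosome 4 genes and 5.84 for other autosomal genes. A share near its upper bound has less room to vary, so these SDs do not compare reproducibility. Of the tested members, 13, or 27.1%, averaged above 95%, against 13.8% of other autosomal genes, and only 4, or 8.33%, fell below 60%, against 24.6% of other genes. These medians describe the genes that passed the slice minimum and carry no test.

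**Figure D1:**
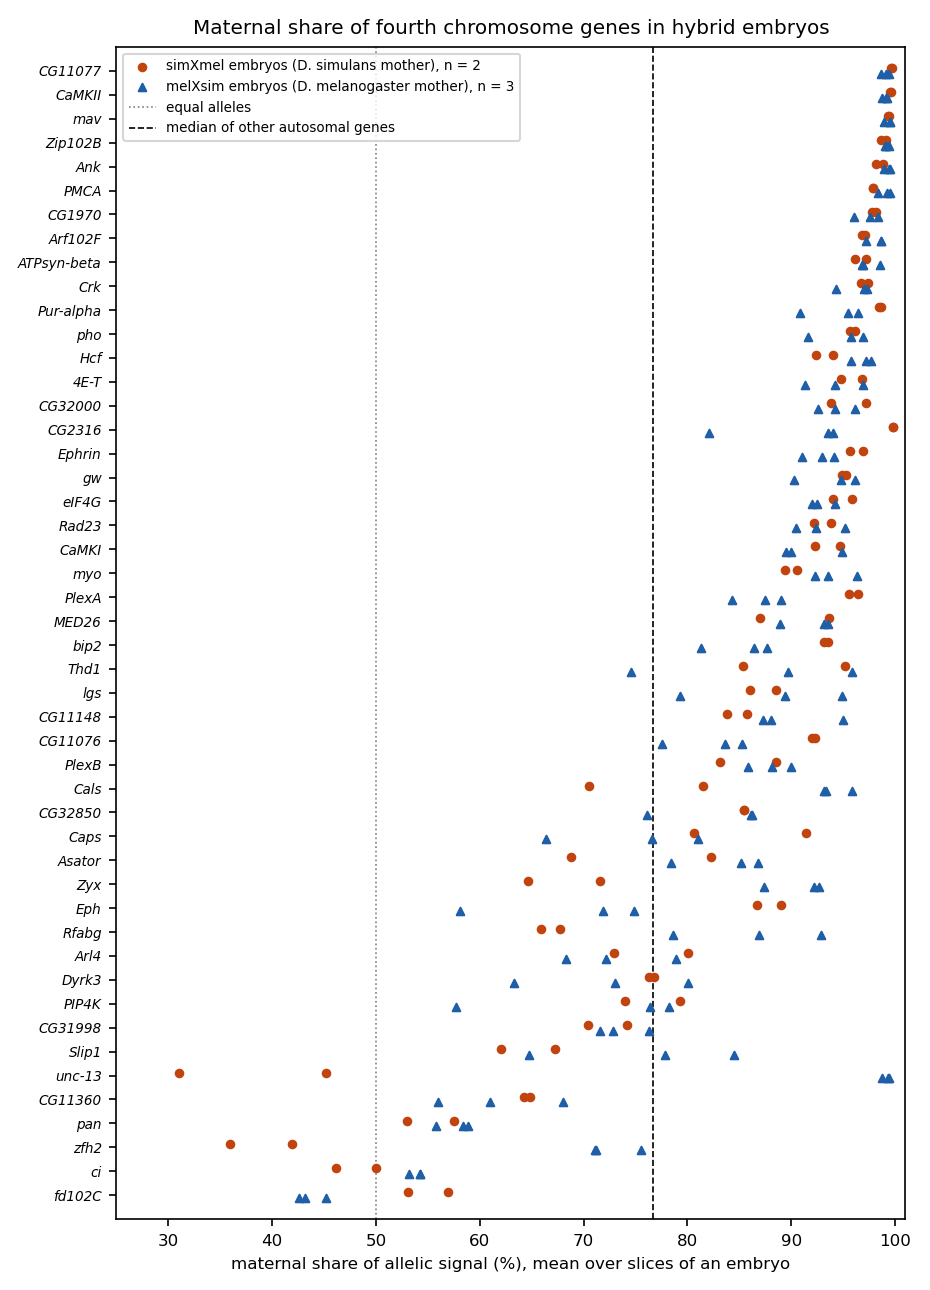
Maternal share of allelic signal (%) of the 48 tested chromosome 4 genes, 1 row per gene ordered by its average, with circles for the 2 simXmel embryos and triangles for the 3 melXsim embryos. Most genes lie to the right of the dashed line, the median of other autosomal genes at 76.7%, while fd102C, ci and pan lie near the dotted line of equal alleles and zfh2 and unc-13 split by cross.

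The 5 genes with the highest maternal share were almost free of paternal signal. CG11077 had 99.7% and 99.6% maternal signal in simXmel and 98.7%, 99.1% and 99.4% in melXsim. CaMKII, the calcium/calmodulin-dependent kinase, averaged 99.6% ± 0.0719 in simXmel (SD, n = 2) and 99.1% ± 0.24 in melXsim (SD, n = 3), and mav (maverick), a ligand of the TGF-beta family, 99.3% ± 0.0712 in simXmel and 99.3% ± 0.294 in melXsim (SD, n = 2 and 3). Zip102B, a member of the zinc transporter family, and Ank, the membrane skeleton protein ankyrin, stood at 99.0% and 98.9% averaged over both directions. In none of the 5 did any embryo fall below 98.2%. The allele table holds no score of exactly -1 or 1, so for such genes the share is an average over slices in which both alleles were counted: CG11077 had a score in 5 and 15 slices of the simXmel embryos and in 5, 19 and 10 slices of the melXsim embryos.

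Grouped by role, the exceptions to the maternal calls among listed genes were the transcription factors ci, pan, zfh2 and fd102C and the synaptic gene unc-13. With 85.4% of all tested members called, against 59.8% of all autosomal genes, lists of this size in which every gene was called are no result about the list. Both energy metabolism members were called maternal, ATPsyn-beta and CG1970, a subunit of respiratory complex I, averaging 97.0% and 97.6%. All 4 members of the chromatin and DNA repair list were called, with 95.3% for pho, a DNA-binding recruiter of Polycomb complexes, 95.03% for the chromatin cofactor Hcf, 92.8% for Rad23 and 88.5% for the thymine DNA glycosylase Thd1. Likewise called were both genes of RNA silencing and translation, gw at 94.4% and the initiation factor eIF4G at 93.9%, and both TGF-beta ligands, mav and myo (myoglianin), the second at 92.0%. All 5 members of the axon guidance list were called: the adaptor Crk at 96.6%, Ephrin at 94.5%, the semaphorin receptors PlexA at 91.5% and PlexB at 86.9%, and the receptor tyrosine kinase Eph at 78.1%. Of the 3 genes of segment polarity and Wnt signalling, lgs, the coactivator that binds Armadillo, was called at 87.6%, while ci and pan were not. Among other transcription factors, bip2, a TFIID subunit, was called at 89.2%, and zfh2 and fd102C were not. In the list of synapse and ion handling, 3 of 4 tested genes were called, CaMKII, Caps and the calcium pump PMCA, with unc-13 as the exception, and in that of cytoskeleton and membrane traffic 4 of 4, Ank, Arl4, Arf102F and Asator.

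When both directions were averaged, 4 genes lay below 60%, and 3 of them were close to equal alleles in every embryo. For ci (chromosome 4, 68335 to 77667), the maternal share was 46.1% and 49.98% in simXmel and 54.2%, 53.2% and 54.3% in melXsim. The D. melanogaster allele of ci was thus ahead in all 5 embryos, though barely so in simXmel replicate 2. For fd102C, a forkhead domain gene, the maternal share was 57.0% and 53.0% in simXmel and 43.2%, 42.6% and 45.2% in melXsim, from only 4 or 5 slices of each embryo. Here the D. simulans allele was ahead in all 5 embryos. Neither of these leads was called as a species bias. For pan (chromosome 4, 89951 to 134896), the maternal share was 57.5% and 53.0% in simXmel and 58.4%, 55.8% and 58.8% in melXsim, the mother's allele being slightly ahead in all 5 embryos. None of the 3 was called maternal: pan passed the threshold in melXsim (limma adjusted p = 0.0486) but not in simXmel (adjusted p = 0.243). Next to each other among the genes of the FPKM files, ci and pan thus lay at the balanced end, whereas Ank, whose locus begins just beyond pan, was among the most maternal.

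zfh2 and unc-13 were uneven in another way, with the D. melanogaster allele ahead in both directions by more than in ci. zfh2, a zinc finger homeodomain transcription factor (chromosome 4, 522435 to 561500), was the only chromosome 4 gene called for a species bias, 1 of 48 or 2.08%, against 5.12% of all autosomal genes tested, 2.86% toward D. simulans and 2.26% toward D. melanogaster. Its mother's allele had 36.0% and 41.9% in simXmel and 75.5%, 71.1% and 71.2% in melXsim. In every one of the 5 embryos, therefore, D. melanogaster reads were in excess. The log2 ratio of D. simulans to D. melanogaster was -0.65 in simXmel (limma adjusted p = 0.0383) and -1.41 in melXsim (adjusted p = 0.000334). The call was lost without simXmel replicate 1, without simXmel replicate 2 and without melXsim replicate 1 (0 members called in each case), and with the median score in place of the mean. Thd1, whose locus overlaps that of zfh2, was maternal at 95.2% and 85.3% in simXmel and 89.7%, 74.6% and 95.8% in melXsim, and the part of shared reads in the zfh2 values was not tested.

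unc-13, which primes synaptic vesicles in neurons (chromosome 4, 888449 to 932957), differed most between the directions. Its maternal share was 45.2% and 31.1% in simXmel and 99.4%, 98.7% and 99.4% in melXsim. In the scored slices the D. melanogaster allele thus had the larger share in all 5 embryos. It did not pass the limma threshold in simXmel, where scores came from only 6 and 4 slices (adjusted p = 0.115), and passed it in melXsim (adjusted p = 2.2e-06). As slices with a single allele carry no score, which allele led over a whole simXmel embryo was not measured. With 1 contrast averaged over both directions its log2 ratio of D. simulans to D. melanogaster was -3.83 ± 0.23 (SE, limma adjusted p = 0.000451). That value is the mean of -0.71 in simXmel and -6.95 in melXsim. Under this averaged contrast 13 members were called for a species bias, among them Cals, Zyx, Hcf, CG2316 and CaMKII, against 35.2% of all autosomal genes. In these named genes the mother's allele led in both crosses, as in CaMKII with 99.6% in simXmel and 99.1% in melXsim. For them the contrast measures a maternal excess of unequal size, not 1 species' allele leading in both crosses.

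The same genes could be compared by level between the directions of the cross, which have the same pair of genomes on the fourth chromosome but different mothers. Of the 49 members tested, 14 differed (limma on log2 of FPKM + 1, adjusted p under 0.05), or 28.6%, against 19.9% of the 5548 autosomal genes tested. Higher in simXmel were 7, against 10.8% of all genes, and lower were 7, against 9.05%. The median log2 difference was 0.16 for the members and 0.15 for all genes, so a small offset toward simXmel was shared by autosomal genes as a whole. Centring each embryo on its median, which moved embryos by -0.13 to 0.16 on the log2 scale, left 13 calls and lost PlexA. Leaving out simXmel replicate 1 reduced the count to 8 and leaving out simXmel replicate 2 to 7, whereas it stayed between 12 and 14 without any one of the melXsim embryos. Without a filter on low FPKM, 3 members were called, CG2316, CG11076 and unc-13. No share over all autosomal genes is given under these settings, so the changes in count are no result about the fourth chromosome.

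The largest excess in simXmel was that of CG2316 (chromosome 4, 204701 to 214455). It had 63.4 and 53.6 FPKM in simXmel, against 8.78, 4.39 and 7.29 FPKM in melXsim. The log2 difference was 2.97 ± 0.33 (SE, adjusted p = 2.7e-05), and the groups were far from overlapping. The pure species embryos differed alike, with 46.9 FPKM in simXsim and 6.90 FPKM in melXmel. CG2316 was maternal in both directions, with 99.8% in both simXmel embryos and 93.6%, 82.1% and 94.0% in melXsim.

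CG11076 (chromosome 4, 1050336 to 1052383) had 183 and 282 FPKM in simXmel, against 45.2, 54.3 and 37.8 FPKM in melXsim, a log2 difference of 2.30 ± 0.27 (SE, adjusted p = 4.7e-05). simXsim had 202 FPKM and melXmel 61.9 FPKM. CaMKII, which lies close by, had 70.2 and 112 FPKM in simXmel, against 22.9, 22.3 and 34.0 FPKM in melXsim (log2 difference 1.74 ± 0.30, adjusted p = 0.00101), with 105 FPKM in simXsim and 38.6 FPKM in melXmel. ATPsyn-beta, which lies between CG11076 and CaMKII, was not called (log2 difference 0.24, adjusted p = 0.625), while CG11077, on the other side of CG11076, was higher in simXmel with 354 and 456 FPKM, against 209, 202 and 236 FPKM in melXsim (log2 difference 0.90 ± 0.23, adjusted p = 0.0128). The remaining simXmel-high genes were PlexA, 4E-T, which binds the cap-binding factor eIF4E, and CaMKI, with log2 differences of 0.92, 1.40 and 1.15.

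In the opposite direction unc-13 led. It had 0.49 and 0.43 FPKM in simXmel, against 11.5, 6.32 and 13.01 FPKM in melXsim (log2 difference -2.90 ± 0.34, adjusted p = 4.5e-05), and 0.28 FPKM in simXsim against 11.1 FPKM in melXmel. Embryos of D. simulans mothers thus had little of this transcript whatever the father, and the simXmel allele shares given above were measured on this small amount. fuss, a Ski/Sno family gene, had 0.35 and 0.83 FPKM in simXmel, against 15.5, 2.43 and 5.38 FPKM in melXsim (log2 difference -2.18 ± 0.50, adjusted p = 0.00709).

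Arf102F was the most abundant gene of this group, with 42.9 and 80.2 FPKM in simXmel, against 203, 167 and 249 FPKM in melXsim (log2 difference -1.77 ± 0.29, adjusted p = 0.000686). The parental values were 59.3 FPKM in simXsim and 275 FPKM in melXmel. Its maternal share was nevertheless high in both crosses and slightly higher in melXsim, at 97.1% and 96.8% in simXmel and 98.6%, 97.2% and 98.7% in melXsim. Cals (calsyntenin), next to Arf102F on the chromosome, had 3.81 and 5.77 FPKM in simXmel, against 28.001, 13.7 and 16.8 FPKM in melXsim (log2 difference -1.78 ± 0.36, adjusted p = 0.0029). MED26, a Mediator subunit, the kinase gene Asator and CG31999 completed the group, with log2 differences of -1.12, -1.25 and -1.07.

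**Figure D2:**
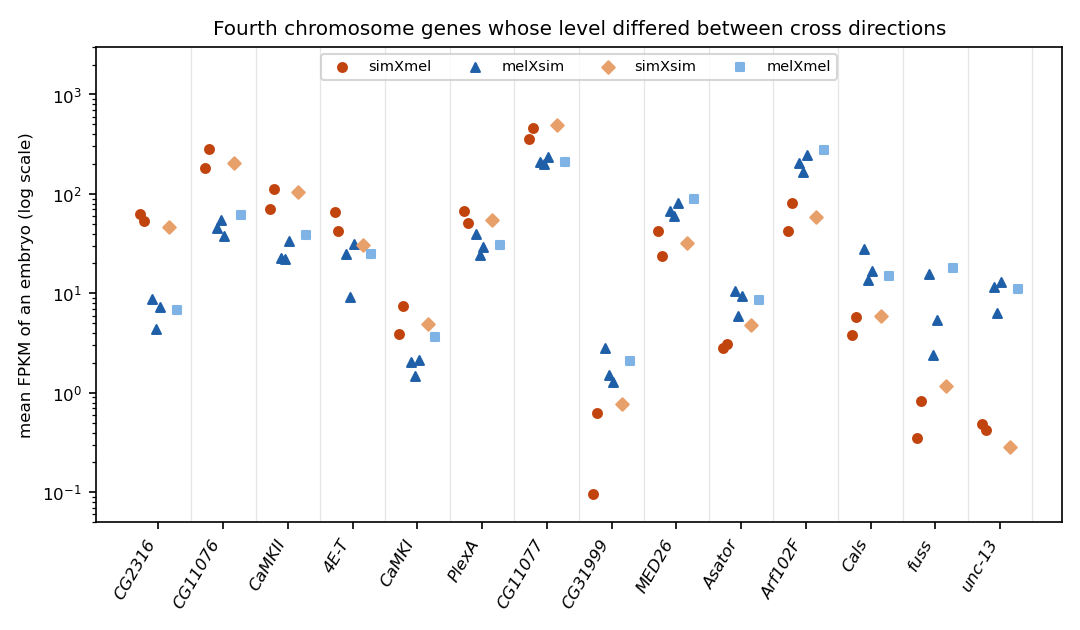
Mean FPKM of each embryo (log scale) for the 14 chromosome 4 genes whose level differed between cross directions, with circles for simXmel, triangles for melXsim, a diamond for simXsim and a square for melXmel. The simXsim diamond lies with the simXmel circles and the melXmel square with the melXsim triangles for most genes, as for CG2316 with 46.9 FPKM in simXsim and 6.90 FPKM in melXmel.

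The pure species embryos differed in the same direction. The contrast between the pure species embryos (simXsim minus melXmel) shares no sample with that between the cross directions, and all 14 genes had the same sign in both, as did 98.5% of the 1102 autosomal genes called between directions. Over all 49 tested members, 41 had the same sign (83.7%, against 78.2% of all autosomal genes), and Pearson's r across these genes, which are not independent replicates, was 0.87, against 0.80 over all genes. In the parental contrast itself, with 1 embryo of each species and its error taken from the spread between hybrids, 7 members were called (14.3%, against 14.7% of all genes), 4 higher in simXsim (8.35% of all genes) and 3 lower (6.4%). Of the 7, 6 were also called with the same sign between cross directions: CG2316, CG11076, CG11077, Arf102F, fuss and unc-13. Without a filter on low FPKM no member was called in this contrast (limma).

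The remaining gene was ci, which was not called between cross directions. ci had 111 FPKM in simXsim and 44.7 FPKM in melXmel, a log2 difference of 1.29 ± 0.40 (SE, adjusted p = 0.0432). The hybrids all lay between these values, with 67.7 and 75.3 FPKM in simXmel and 55.4, 57.6 and 45.3 FPKM in melXsim. The embryos of both crosses did not overlap, which was also so for 49.0% of all autosomal genes tested. The log2 difference between directions was 0.44 ± 0.26 (limma adjusted p = 0.262). The parental call rested on its setting: with each embryo centred on its median, the adjusted p was 0.0986, and it was 0.0907 without a filter on low FPKM and 0.0693, 0.0701 and 0.0672 without simXmel replicate 1, simXmel replicate 2 and melXsim replicate 1. zfh2 had a larger but uncalled parental difference, with 3.41 FPKM in simXsim and 0.52 FPKM in melXmel (adjusted p = 0.0535), although in the hybrids the D. melanogaster allele was the more abundant one. In ci, too, the D. melanogaster allele was ahead in every hybrid, by little.

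**Figure D3:**
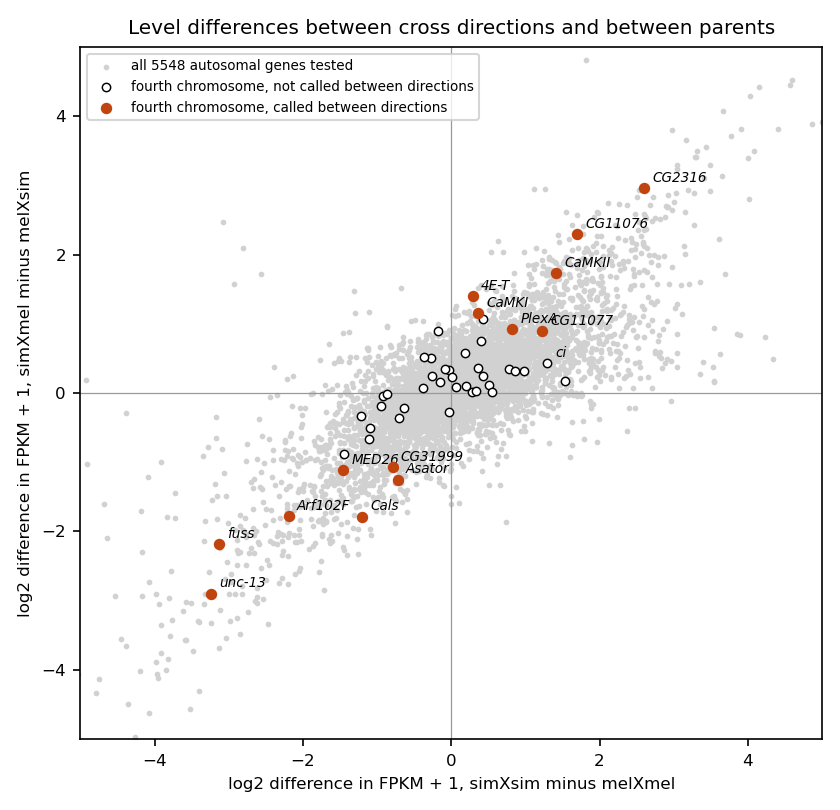
Log2 difference in FPKM + 1 between hybrids (simXmel minus melXsim, vertical) against that between pure species (simXsim minus melXmel, horizontal), with grey points for all 5548 autosomal genes tested, filled circles for the 14 chromosome 4 genes called between directions and open circles for the others, 21 genes lying outside the axes. The filled circles lie along the diagonal from unc-13 to CG2316, and ci lies to the right with a parental difference of 1.29 and a hybrid difference of 0.44.

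No member was called in hybrids as a class against the parents. With the mean of both hybrid groups set against the mean of both pure species, 0 of 49 members were called by limma (0.018% of all genes), and 0 members had an unadjusted p under 0.05, against 1.35% of all genes. The median log2 difference of the members was -0.06, against -0.02 over all genes.

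Levels of the chromosome 4 genes were also compared along the anterior-posterior axis. Each embryo was divided into 3 parts of equal length, and log2 of mean FPKM + 1 was compared between the anterior and the posterior part and between the middle part and the mean of both ends. The slices are bulk samples, so fewer cells of a kind and less RNA per cell cannot be told apart. Of 48 members tested, 5 differed between anterior and posterior (10.4%, against 17% of the 5554 autosomal genes tested) and 5 between middle and ends (10.4%, against 13.5%), with fd102C, zfh2 and ATPsyn-beta in both sets. The gaps to the shares of all genes amount to few genes and are no result about the fourth chromosome. The median absolute anterior-posterior difference was 0.09 for the members and 0.12 for all genes.

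fd102C had the sharpest pattern by far. Its anterior part averaged 55.0 and 69.6 FPKM in simXmel and 71.7, 17.6 and 21.8 FPKM in melXsim, and no hybrid embryo exceeded 0.42 FPKM in the middle or 0.38 FPKM in the posterior part. The highest slice was the first or second of each hybrid embryo, with 146 and 198 FPKM in simXmel and 169.5, 74.3 and 76.2 FPKM in melXsim. The last measured slice of 10 FPKM or more was slice 3 or 4 in all 5 hybrids. In melXsim replicate 1 slices 4 and 5 were not among those used, so the position of its posterior edge was not measured and its anterior mean lacks these slices. The anterior-posterior log2 difference was 5.05 ± 0.27 (SE, adjusted p = 1.3e-06). In the pure species fd102C was also high in the first slices, with 28.6 FPKM in the anterior part of simXsim and 22.9 FPKM in that of melXmel, and at most 0.66 FPKM in the other parts. Slice 3 had 9.91 FPKM in simXsim and 83.3 FPKM in melXmel, and slice 4 had 0 FPKM in simXsim and 16.2 FPKM in melXmel, with 1 embryo of each and slice 2 of melXmel not among those used.

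ci, by contrast, was expressed throughout and was lower in the anterior than in the posterior part. Its anterior part averaged 52.3 and 71.4 FPKM in simXmel and 49.0, 44.6 and 33.8 FPKM in melXsim, while the posterior part averaged 85.6 and 88.0 FPKM in simXmel and 64.2, 58.9 and 61.3 FPKM in melXsim. The anterior part was the lower in 5 of 5 hybrids, with a log2 difference of -0.52 ± 0.08 (SE, adjusted p = 0.00217), and in both pure species, at 92.1 FPKM against 120 FPKM in simXsim and 37.9 FPKM against 45.9 FPKM in melXmel. zfh2 was highest at the posterior end, with 3.87 and 1.72 FPKM in the posterior part of simXmel and 1.98, 2.60 and 1.88 FPKM in that of melXsim. It was lowest in the middle, with at most 1.53 FPKM there in any hybrid, and both of its contrasts were called (log2 differences of -0.60 ± 0.13 for anterior minus posterior and -0.61 ± 0.11 for middle minus ends, adjusted p = 0.0102 and 0.00338). The calls of fd102C, ci and zfh2 between anterior and posterior remained without any one of the 5 hybrids, while without a filter on low FPKM ci missed the threshold (adjusted p = 0.0615).

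The other patterned members varied little along the axis. ATPsyn-beta was lower in the middle than at the ends by 0.19 ± 0.04 on the log2 scale (SE, adjusted p = 0.0123) and lower anteriorly than posteriorly by 0.17 ± 0.05 (adjusted p = 0.0346). pho and Pur-alpha, a single-stranded nucleic acid binding protein, were higher in the middle by 0.20 ± 0.05 and 0.26 ± 0.06 (adjusted p = 0.0306 and 0.0179), and CG2316 was lower anteriorly by 0.30 ± 0.09 (adjusted p = 0.0463). Each of these 4 genes lost its call under at least 1 omission of an embryo. Between middle and ends, 2 members (fd102C and zfh2) were left without simXmel replicate 1 or without melXsim replicate 3 and 3 without melXsim replicate 1, and 3 members were left between anterior and posterior without melXsim replicate 2. No member's pattern was called different between the directions of the cross by limma (0.432% of all genes for anterior minus posterior and 0.036% for middle minus ends), with 7 members in the first and 6 in the second at an unadjusted p under 0.05, against 13.3% and 9.96% of all genes.

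**Figure D4:**
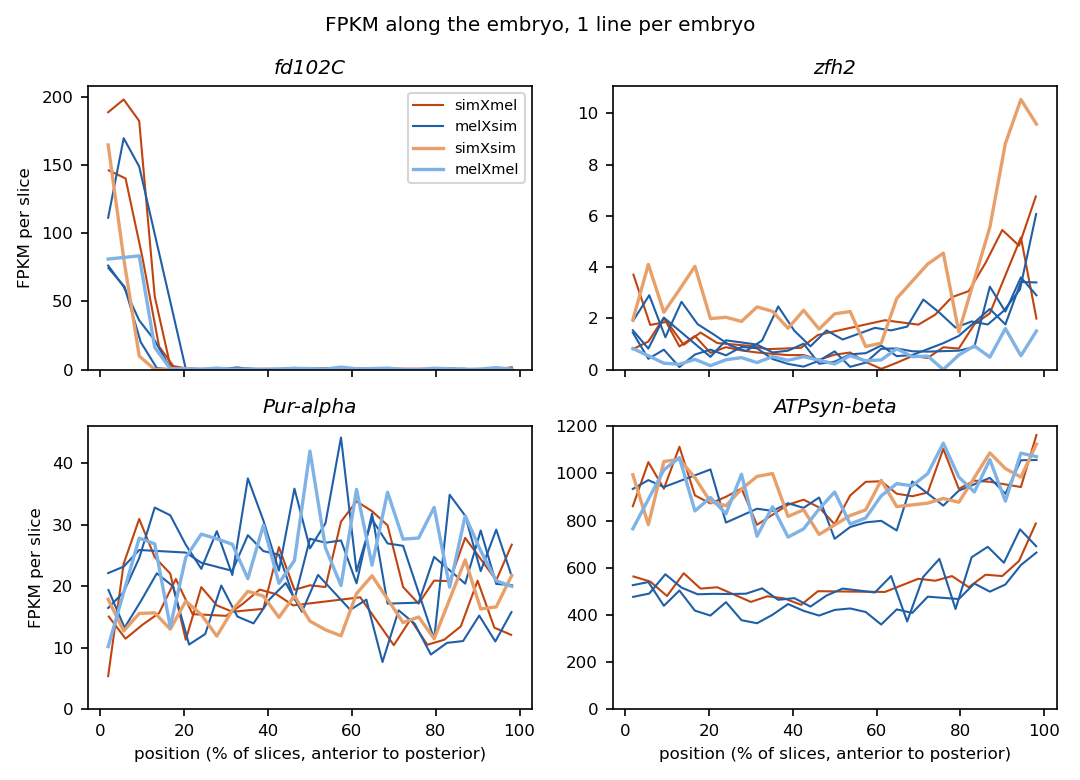
FPKM per slice along the embryo (position in % of slices, anterior to posterior) for fd102C, zfh2, Pur-alpha and ATPsyn-beta, with 1 line per embryo coloured by genotype. fd102C is high in the first slices, with a highest slice of 74.3 to 198 FPKM in hybrids, zfh2 climbs at the posterior end, and the other genes are nearly flat.

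No member passed the test for an allele balance that changed along the axis, and ci came closest. Of 39 members with scores in at least 3 slices of both outer parts of each hybrid, 0 were called between anterior and posterior (limma, against 0.97% of 3919 autosomal genes), while 5 had an unadjusted p under 0.05 (12.4% of all genes). For 4 of these 5, zfh2, CG11360, Zyx and Rad23, the limma adjusted p was at least 0.188. The mean difference in ASE score of zfh2, -0.168 ± 0.054 (SE), was as large as that of ci, -0.166 ± 0.025, but varied more. The difference between directions in this contrast was not called for any member either (0 by limma, 2.7% of all genes), with 4 members at an unadjusted p under 0.05, against 26% of all genes.

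In ci the D. melanogaster allele led anteriorly and the D. simulans allele was level with it or slightly ahead posteriorly. The mean score of the anterior part was -0.16 and -0.05 in simXmel and -0.16, -0.14 and -0.20 in melXsim, and that of the posterior part was 0.01 and 0.02 in simXmel and 0.02, 0.02 and 0.03 in melXsim. The first slice of melXsim replicate 1, at -0.61, was the lowest score of all. The change had the same direction in 5 of 5 hybrids, whichever species was the mother. The mean difference was -0.17 ± 0.02 (SE), and its adjusted p of 0.0584 just missed the threshold, with 0.051 to 0.196 over the other settings tried. ci ranked 51st of 3919 genes by its unadjusted p in this contrast.

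A smooth curve was also fitted over all 126 hybrid slices. It used the same scores as the contrast above, so it is no separate evidence. A logistic function of position, centred at 0.54 of the length, accounted for 44.7% of the variance in the ci score, just below the 45% taken as the mark of a patterned allele balance, which 0 of 45 members reached (1.36% of 4323 autosomal genes did). ci ranked 61st of these 4323 genes, and the next member, zfh2, reached 11.7%. The fitted share for ci passed 45% where scores were centred within each embryo (47.8%), without simXmel replicate 2 (53.6%) and without melXsim replicate 1 (49.9%), and it fell to 38.4% without melXsim replicate 3. Pure D. simulans had more ci RNA in every part, with 92.1, 123 and 120 FPKM from anterior to posterior in simXsim, against 37.9, 49.5 and 45.9 FPKM in melXmel.

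**Figure D5:**
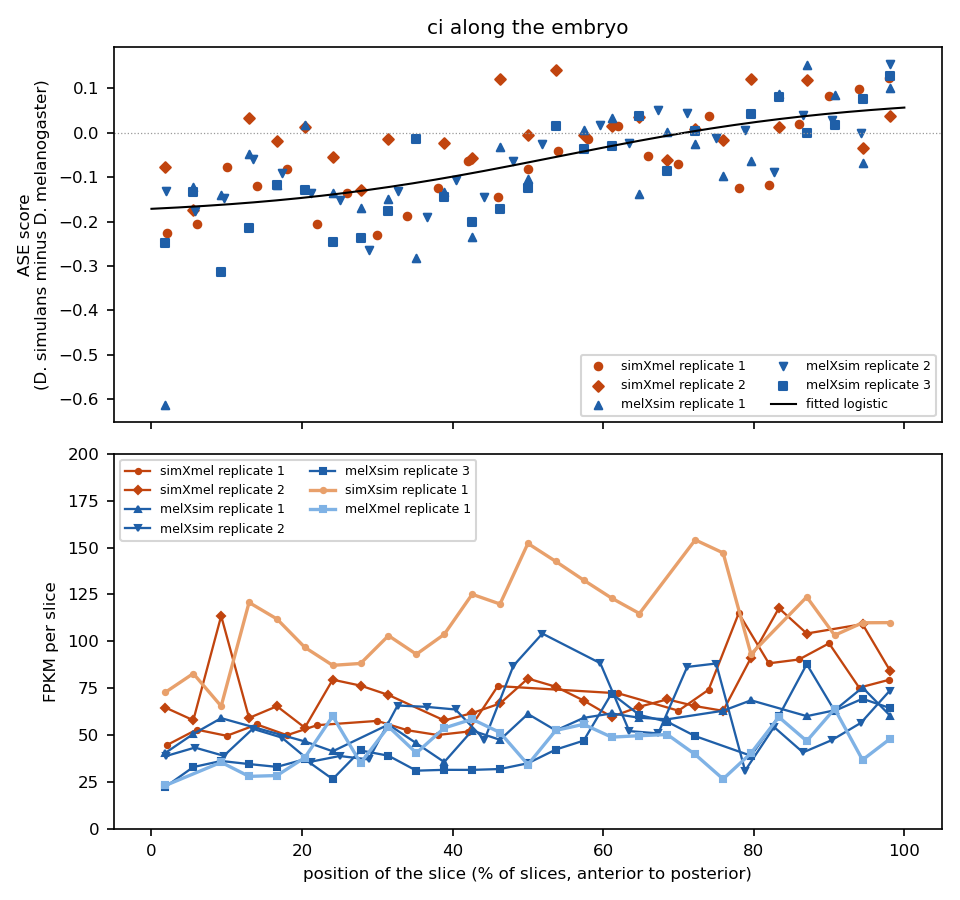
ASE score of ci in each hybrid slice (top, with the fitted logistic) and its FPKM per slice in all 7 embryos (bottom) against slice position in % from anterior to posterior, with symbols for each embryo. Scores lie mostly below 0 in the anterior and around or above 0 in the posterior in all 5 hybrids, and the simXsim line lies above the others over most of the embryo in the lower panel.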

How the data were processed

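Single-embryo slices were sequenced with a SMART-seq2 protocol. Per the submitters' processing notes, CASAVA 1.8.2, STAR 2.4.2a and Cufflinks 2.2.1 were used, and the deposited FPKM values were made by the authors against a polymorphism-masked release 5 D. melanogaster genome. The deposited ASE table holds a score per gene and slice, computed by the authors after filtering reads for mapping bias. The deposited allele counts at single polymorphisms were not used for the fourth chromosome: in simXsim 17 of 29 of its positions with at least 20 counts, and in melXmel 10 of 25, were assigned mostly to the absent species. Depth behind a score or an FPKM value was not assessed, and no counting interval is given.

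Levels used the 169 slices with values in the joint FPKM table, averaged per embryo, with a pseudocount of 1 and a minimum mean of 1 FPKM. The 178 slices of the ASE table include 126 of hybrids. Columns of the joint FPKM and ASE tables that match no sample (27) and FPKM values marked as failed by Cufflinks (9) were not used. X-linked genes were left out. Tests used limma 3.58.1 in R 4.3.3 (empirical Bayes, with a mean-variance trend for levels) over all autosomal genes, with Benjamini-Hochberg adjustment, on 5 hybrid or all 7 embryos, and fold changes on the log2(FPKM + 1) scale understate low genes. Log2 allele ratios came from each embryo's mean score. P-values measure the spread between embryos of 1 strain pair. Named genes were the 5 most abundant, the 5 highest maternal shares, the 4 members below 60% maternal share, the called members of each test (at most 8 by effect) and the most abundant members of role lists. Other names were chosen after their values were seen, as neighbours or exceptions. Members and lists were chosen with earlier results of these data known.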

Additional observations from a re-analysis of the deposited data

How the results depend on the processing

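Among alternatives, the count of 41 maternal members ranged from 35 to 43 when 1 hybrid embryo was left out, and the median maternal share of 90.2% from 89.3% to 91.7%. Species bias calls numbered 0 with the median score, 13 with 1 contrast over both directions, and 0 to 2 with 1 embryo left out. The contrast over both directions also calls genes whose maternal excess differs in size between the crosses. Without a filter on low FPKM, the members called numbered 3 between cross directions, 0 between parents and 2 between anterior and posterior, and the cause was not tested. With all slices, 3 were called between anterior and posterior and 3 between middle and ends. Leaving out 1 embryo gave 7 to 14 between cross directions, 6 to 10 between parents, 0 for hybrids against parents, 3 to 4 between anterior and posterior, 2 to 5 between middle and ends, and 0 for the anterior-posterior allele test. Axis function fits numbered 1 with centred scores, 1 at a minimum of 12% of variance and 0 to 1 with 1 embryo left out, ci in each case. Apart from the species contrast, shares over all autosomal genes are not given under these alternatives. The changes in count are therefore no result about the fourth chromosome. No called gene changed direction, under the alternatives run, in the comparison that called it. The replicate block over replicates 1 and 2 of both directions called 11 members between cross directions, against 14 without it, but the replicate numbers are not stated to pair embryos. The main limits are 2 or 3 embryos per cross, 1 embryo per parental species, a read depth per score that was not assessed, and the absence of slices with a single allele from the allele table.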
